A study of Mus musculus with 9 samples.

Results

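Cells answer unfolded protein with a set of chaperones, and 35 genes of this set, listed by symbol, were described in AdvSca1-SM cells, the smooth muscle–derived, Sca1-expressing progenitor cells of the arterial adventitia. They are 35 of the 55416 Ensembl genes in the count table, and every listed symbol matched 1 gene and passed the filter on low counts. The members are 7 genes of the HSP70 and HSP110 family, 2 HSP90 genes, 5 HSP90 co-chaperones, 3 J-domain genes with the nucleotide exchange factor *Bag3*, 5 small heat shock proteins, 8 subunits of the chaperonin CCT, 2 mitochondrial chaperonins and 2 heat shock factors. Although the set was named for the cytosol, the products of *Hspa9*, *Hspd1* and *Hspe1* work in mitochondria.

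The cells were sorted as YFP+ and Sca1+ from the aorta and carotid arteries of pooled 8-week-old SM22α-Cre-YFP mice, in which a smooth muscle promoter drives Cre, and were expanded in culture before use. RNA-Seq was done on 3 libraries in each of 3 groups, and all cells received 0.1% DMSO for 72 h. The Stem group received vehicle and, per the study's methods, was kept in stem cell medium, for which 10% FBS, basic fibroblast growth factor and epidermal growth factor are given for maintenance. A 24 h growth arrest is listed for every library, those of Stem included. The study's methods describe it only for cells about to be differentiated or treated. The TGF-β group was growth arrested for 24 h in 0.1% FBS, moved to DMEM with 0.1% FBS and given 5 ng/mL TGF-β1. This cytokine drives these cells toward myofibroblasts. The Both group was handled like the TGF-β group and also received 50 μM PFI-3, an inhibitor that occupies the bromodomain of Brg1, a chromatin remodeler. Medium and TGF-β1 change together between Stem and TGF-β and cannot be told apart there, and PFI-3 is what separates Both from TGF-β. The labels call the libraries of a group replicates and the paper calls them independent, without saying whether each came from a separate sort of cells, so the p-values measure the spread between these cultures.

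HSP70 proteins bind exposed hydrophobic stretches of a client in a cycle driven by ATP, with J-domain proteins delivering clients and starting hydrolysis and nucleotide exchange factors, among them *Bag3* and the HSP110 proteins, reopening the cycle. Clients such as kinases and steroid receptors pass on to HSP90 with the help of co-chaperones, actin and tubulin fold inside the ring of CCT, and small heat shock proteins hold unfolding proteins without ATP, in muscle cells mostly on the contractile apparatus. Heat shock factor 1 switches on the inducible members under proteotoxic stress by binding repeated GAA units of alternating orientation, called heat shock elements.

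Total counts ran from 35686291 to 47741128 per library, and the lowest count of any member in any library was 118. Spearman's rho between libraries of a group, taken across genes, was 0.995 or more. Values are normalized counts, which are read counts scaled by TMM to a common library of 41184338 counts, unless a level per kb of exon is named. Markers of the sorted cells fell in sum from between 50989 and 59312 in Stem to between 12195 and 12314 in TGF-β and between 10605 and 11137 in Both, a sum carried in Stem mostly by *Pdgfra*. Within that list *Pi16* went the other way (log2 fold change 3.51 from Stem to TGF-β), and *Dpp4* was below 15 everywhere. The myofibroblast list rose in sum from at most 339468 to at least 1119470 and lay between 828409 and 874820 in Both. The smooth muscle list rose in sum from at most 10377 to at least 20216 and lay between 15062 and 16115 in Both, mostly through *Acta2* and *Tagln*. The other genes of that list did not rise. *Myh11* and *Lmod1* fell from Stem to TGF-β (log2 fold changes -1.58 and -0.69), and *Cnn1* did not pass the test (-0.18, adjusted p = 0.203). Of 6 hepatocyte markers, checked because the extraction label names liver, 5 had at most 3 counts in every library. Summed macrophage markers lay between 139.6 and 152 in Stem, 178 and 219 in TGF-β and 291 and 307 in Both, without overlap. That sum came mostly from *Lyz2* and *Csf1r*. Of these, *Csf1r* rose from Stem to TGF-β (log2 fold change 1.41) and again with PFI-3 (log2 fold change 0.86, adjusted p = 0.0149). *Adgre1* and *Itgam* were at 0 in every library and *Ptprc* was at most 2.93. Adipocyte markers summed to at most 4.35 normalized counts, and the endothelial list rose from at most 214 to at least 1026 in both TGF-β1–treated groups, mostly through *Erg*, with *Pecam1* and *Cdh5* at most 13.2 and *Tie1* at most 3.14. Whether other cells took part in the differences below was not tested.

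Sequences upstream of the start were at hand from RefSeq (GRCm38.p6) for 28 of the 35 members, in 37 windows of 250 bases. The letters searched were the dimer GAANNTTC or TTCNNGAA and the trimer GAANNTTCNNGAA or TTCNNGAANNTTC, each of which also covers the opposite strand, with overlaps allowed. The dimer stood in 35.1% of the member windows, those of 12 genes, and in 12.8% of all 32851 promoter windows, and the trimer in 5.41% and 0.466%. These windows are not independent sequences, since both windows with a trimer read the same stretch between *Hspd1* and *Hspe1*, those of *Hsph1* overlap, and those of *Hspa1a* and *Hspa1b* are nearly identical. The trimer was found upstream of *Hspd1* and *Hspe1*, 2 neighbors that point away from each other with 215 bases between their starts. This stretch is shown because the 2 genes it separates moved alike. It is the plus strand of chr1:55087933-55088147, read toward *Hspe1*, with the bases of 3 overlapping dimers in capitals, which begin at -89, -84 and -79 from the *Hspe1* start.
Hspd1 to Hspe1: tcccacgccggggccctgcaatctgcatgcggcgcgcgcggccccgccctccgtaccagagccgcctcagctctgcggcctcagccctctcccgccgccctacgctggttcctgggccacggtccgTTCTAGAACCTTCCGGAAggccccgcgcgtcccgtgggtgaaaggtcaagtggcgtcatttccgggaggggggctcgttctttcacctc
The windows of *Hspa1a* (chr17:34972157-34972406, minus strand) and *Hspa1b* (chr17:34959239-34959488, minus strand) are shown because the 2 genes encode nearly the same HSP70 and were the members with the largest fall. They differed at 3 of 250 bases, and each held 1 dimer, in capitals, at -104.
Hspa1a: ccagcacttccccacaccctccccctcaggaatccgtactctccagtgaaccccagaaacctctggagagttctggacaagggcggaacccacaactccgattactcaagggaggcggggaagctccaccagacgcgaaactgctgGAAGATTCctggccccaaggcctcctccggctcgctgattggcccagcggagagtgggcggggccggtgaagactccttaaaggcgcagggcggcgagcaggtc
Hspa1b: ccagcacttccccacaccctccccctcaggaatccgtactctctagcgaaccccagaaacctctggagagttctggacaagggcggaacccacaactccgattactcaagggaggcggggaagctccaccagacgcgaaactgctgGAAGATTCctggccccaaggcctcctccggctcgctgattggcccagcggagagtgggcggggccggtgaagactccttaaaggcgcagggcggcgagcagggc
A match of letters describes the sequence and does not show binding, and windows for *Hspa8*, *Hspa9*, *Hsp90aa1*, *Hsp90ab1*, *Cryab*, *Cct4* and *Hsf1* were not analysed here.

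Between Stem and TGF-β, chaperone genes moved in both directions. In TGF-β the small heat shock proteins *Hspb7*, *Cryab* and *Hspb1* and the mitochondrial HSP70 *Hspa9* were more than 2-fold higher, and the stress-inducible HSP70 gene *Hspa1b* was more than 2-fold lower. At an adjusted p below 0.05, 20 members were higher and 7 lower in TGF-β, 57.1% and 20.0% of them, where 37.3% of all 14879 genes tested were higher and 37.7% lower. With the further demand of a 2-fold change, 4 members were higher (10.6% of all genes) and 1 was lower (14.5% of all genes). The median log2 fold change was 0.24 over the members and -0.0027 over all genes, and the groups did not overlap in 26 members, or 74.3%, beside 76.8% of all genes. Scaling by total counts moved the median of all genes to -0.12, and the directions below are relative to the TMM scale. In cultures measured in bulk, fewer cells of a type and less RNA per cell cannot be told apart.

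**Figure D1:**
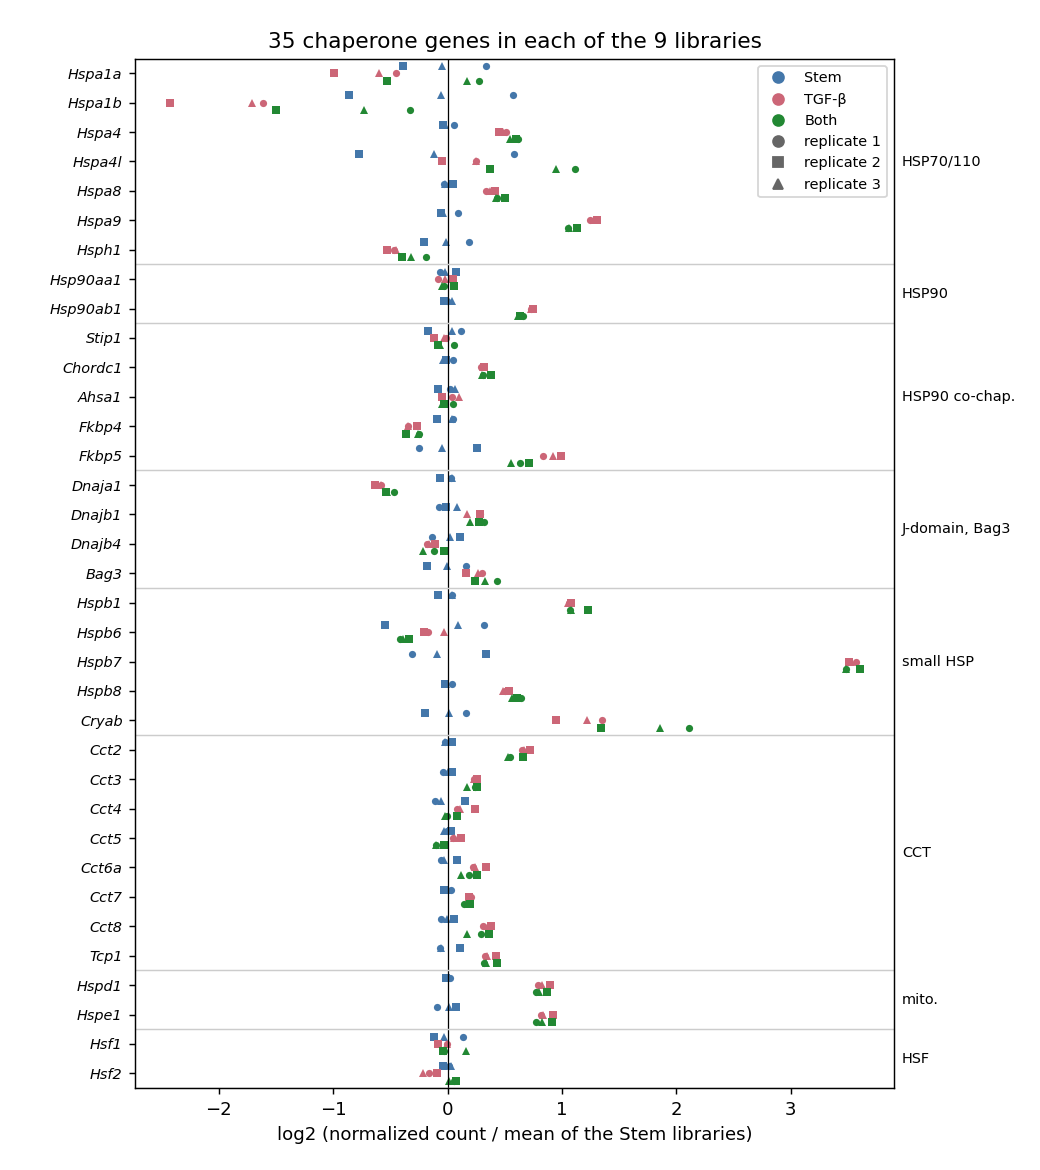
Normalized count of each member in each library, as the log2 ratio to the mean of the 3 Stem libraries (x axis), with genes by role on the y axis, color for group and symbol shape for replicate number. *Hspb7* stands farthest to the right, between 1719 and 1869 normalized counts in the 6 libraries with TGF-β1, and *Hspa1b* farthest to the left.

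Among the HSP70 genes, the inducible pair fell and *Hspa9*, *Hspa4* and *Hspa8* rose. *Hspa1b* measured 5169.5, 1908 and 3343 normalized counts in the Stem libraries, 1134, 645 and 1064 in those of TGF-β and 2772, 1232 and 2096 in Both. Every TGF-β library lay below every Stem library, and the Both libraries lay between, overlapping Stem. The log2 fold change from Stem to TGF-β was -1.88 (SE 0.356, adjusted p = 0.000433). *Hspa1a* measured 769, 465 and 589 in Stem, 444, 306 and 400.3 in TGF-β and 734, 420.5 and 685 in Both. It was lower in TGF-β without overlap (log2 fold change -0.67, SE 0.221, adjusted p = 0.0158), a call that was lost without Stem replicate 1 (-0.46, adjusted p = 0.0697) or without TGF-β replicate 2 (-0.52, adjusted p = 0.0709). The transcripts of the pair share 38.1% and 40.5% of their 150-base windows exactly, so reads may have been split or dropped between them. With their counts summed the log2 fold change was -1.62 (SE 0.325, adjusted p = 0.000668).

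*Hspa9*, the HSP70 of the mitochondrial matrix, measured 11049.9, 9996 and 10117 in Stem, 24626, 25744 and 25234 in TGF-β and 21499.6, 22818 and 21706 in Both. The 3 groups did not overlap, and TGF-β exceeded Stem by 2.43-fold (log2 fold change 1.28, SE 0.0462, adjusted p = 1.43e-10). *Hspa8*, the constitutive cytosolic HSP70, rose more modestly, from 39457, 41610 and 39585 to 50703, 53730 and 52089 (log2 fold change 0.38, SE 0.0418, adjusted p = 4.80e-06). The HSP110 genes, whose products act as nucleotide exchange factors, did not move together. *Hspa4* rose, with a log2 fold change of 0.48 (SE 0.0391), and *Hsph1*, which is strongly heat-inducible, fell (log2 fold change -0.48, SE 0.0828). For *Hspa4l* the Stem libraries, at 3276, 1284 and 2015, spanned the TGF-β libraries at 2598, 2123 and 2607, and the difference was within that spread (log2 fold change 0.15, adjusted p = 0.615).

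The 2 cytosolic HSP90 genes parted. *Hsp90ab1*, the constitutive form, measured 46839, 45799 and 48107 in Stem and 77968, 78687 and 77891 in TGF-β, a rise of 1.67-fold with no overlap (log2 fold change 0.74, SE 0.0373, adjusted p = 3.12e-09). *Hsp90aa1*, the inducible form, stood at 18089, 19920.5 and 18649.9 in Stem, 17879.6, 19497 and 18614 in TGF-β and 18511, 19687 and 18294 in Both. Its groups overlapped throughout (log2 fold change -0.017, 95% interval -0.12 to 0.09), and it passed the test only under total counts, as a fall (log2 fold change -0.14, adjusted p = 0.0150). Per kb of exon *Hsp90ab1* had the highest level of all members in every group, at 15644 normalized counts in Stem, followed by *Hspa8* at 9351 and *Hsp90aa1* at 4805.

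**Figure D2:**
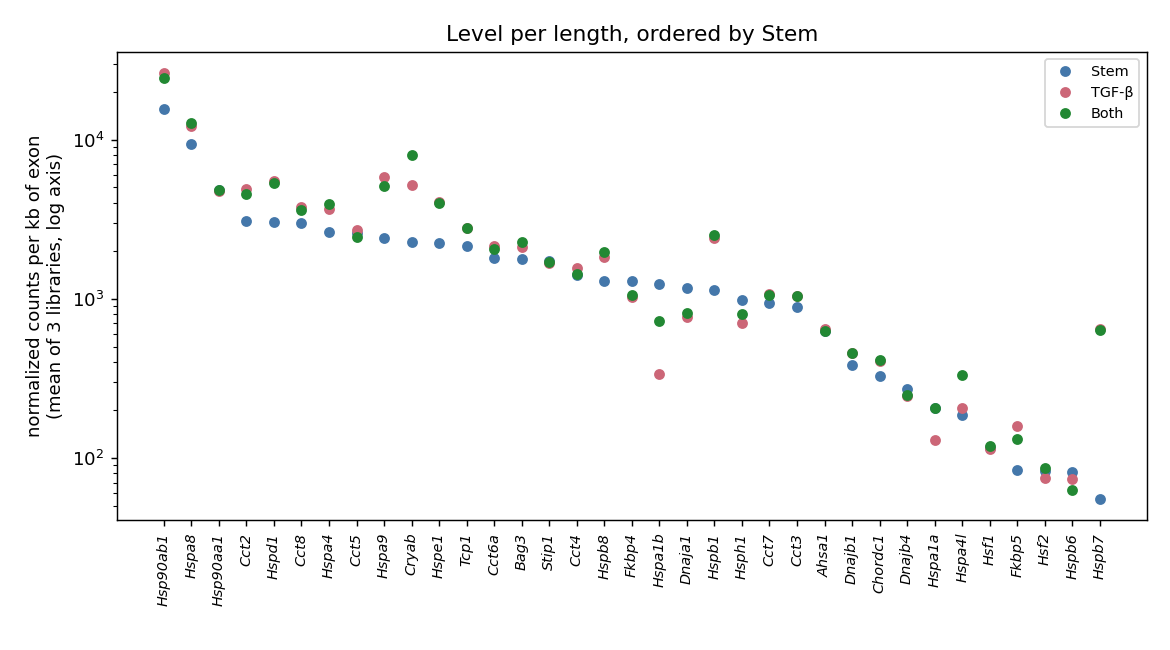
Mean normalized counts per kb of exon in the 3 libraries of each group (y axis, logarithmic), with members ordered by their Stem level on the x axis. *Cryab* moves from rank 10 in Stem to rank 5 in TGF-β and rank 3 in Both, and *Hspb7* from the last rank of 35 to rank 25.

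Of the HSP90 co-chaperones, 2 of 5 rose and 1 fell, beside 37.3% of all genes higher and 37.7% lower. *Fkbp5*, an immunophilin that restrains the glucocorticoid receptor and is itself induced by glucocorticoids, measured 675, 955 and 772 in Stem, 1427, 1589 and 1516 in TGF-β and 1239, 1313 and 1175 in Both. It rose with no overlap (log2 fold change 0.92, SE 0.0995, adjusted p = 3.83e-06). *Fkbp4*, the immunophilin that aids the same receptor, fell, from 3359 to 3710.2 to 2815 to 2991 (log2 fold change -0.32, SE 0.0498). *Chordc1* rose (log2 fold change 0.31, SE 0.0377). For *Stip1*, which links HSP70 to HSP90, and *Ahsa1*, which stimulates the HSP90 ATPase, the 95% intervals of the log2 fold change were -0.20 to 0.093 and -0.082 to 0.14, and neither passed the test.

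All 4 J-domain and exchange factor genes passed the test, 2 in each direction, where 37.3% of all genes were higher and 37.7% lower. *Dnaja1*, a J-domain partner of the constitutive HSP70, measured 10229, 9567 and 10309.9 in Stem, 6722, 6467 and 6714 in TGF-β and 7256, 6924 and 6969 in Both. It was lower in every TGF-β library than in any Stem library (log2 fold change -0.60, SE 0.0406, adjusted p = 4.94e-08). *Dnajb4* was also lower (log2 fold change -0.15, adjusted p = 0.0479), though its groups overlapped and it passed only narrowly. The count of 7 lower members over all roles was 6 with DESeq2. It ran from 5 to 8 over the libraries left out in turn. *Dnajb1*, the heat-inducible J-domain protein, and *Bag3*, which couples HSP70 to small heat shock proteins and to autophagy, rose slightly, by 0.25 (SE 0.0559) and 0.24 (SE 0.0776) on the log2 scale, and *Bag3* overlapped between the groups.

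Small heat shock proteins held 3 of the 4 members that rose past 2-fold, as 10.6% of all genes did. *Hspb7*, a small heat shock protein typical of heart and muscle, measured 124, 193 and 144 in Stem, 1825, 1748 and 1771 in TGF-β and 1723, 1869 and 1719 in Both. All 6 libraries with TGF-β1 stood far above the Stem libraries, by 11.6-fold between Stem and TGF-β (log2 fold change 3.54, SE 0.106, adjusted p = 2.63e-11). *Cryab*, which encodes αB-crystallin, a chaperone of desmin and actin filaments, measured 3788, 2953 and 3401 in Stem, 8641, 6508 and 7867 in TGF-β and 14629.9, 8562 and 12285 in Both. It rose 2.27-fold from Stem to TGF-β (log2 fold change 1.18, SE 0.167, adjusted p = 3.97e-05), and the lowest library of Both exceeded all but 1 of TGF-β. *Hspb1*, the small heat shock protein known as HSP25 in mice, measured 1212, 1112 and 1212 in Stem and 2467, 2484 and 2444 in TGF-β (log2 fold change 1.06, SE 0.0523, adjusted p = 2.37e-09). Its 3 TGF-β libraries lay close together, about 2-fold above Stem. *Hspb8*, the partner of *Bag3*, rose by 0.51 (SE 0.0375) on the log2 scale. *Hspb6*, abundant in contractile smooth muscle, ran from 128 to 233 in Stem and 162 to 183 in TGF-β, with no difference beyond that spread (log2 fold change -0.13, adjusted p = 0.486).

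**Figure D3:**
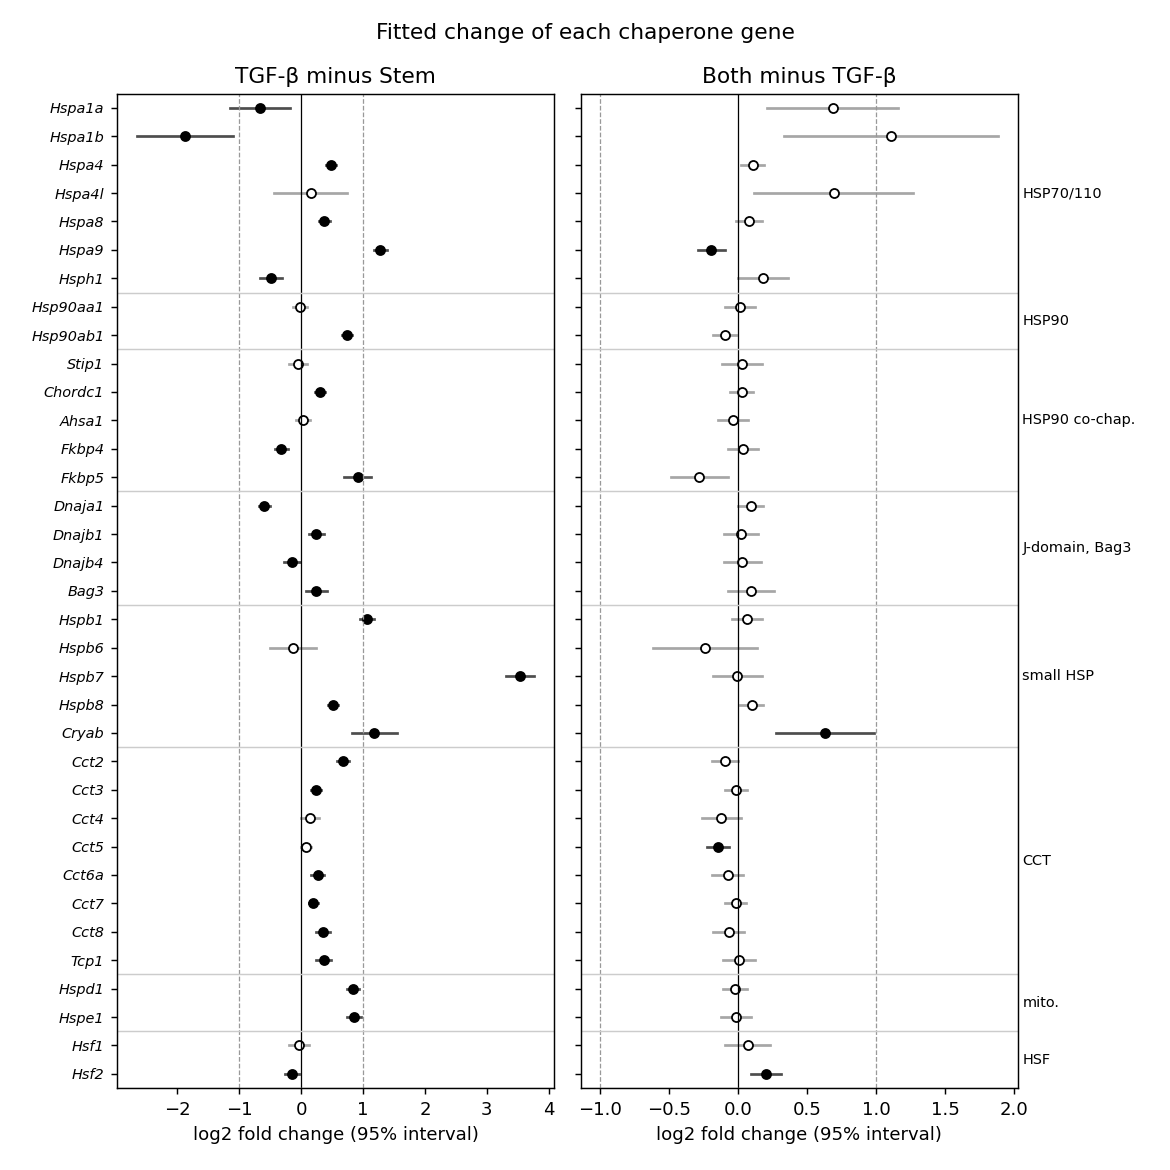
Log2 fold change of each member with its 95% interval (x axes, of unequal range), for TGF-β minus Stem on the left and Both minus TGF-β on the right, with filled circles at an adjusted p below 0.05 and dashed lines at 2-fold. On the left 27 circles are filled and on the right 4, and the widest intervals on the right belong to *Hspa1b*, *Hspa4l*, *Hspa1a*, *Hspb6* and *Cryab*.

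CCT is a ring of 8 different subunits in equal numbers, and its genes rose little and unequally. In TGF-β 6 of the 8 passed the test, all higher, where 37.3% of all genes were higher and 37.7% lower. The median log2 fold change of the 8 was 0.25. *Cct2* stood apart, at 7723, 8045 and 7711 in Stem and 12259, 12910.2 and 12439 in TGF-β (log2 fold change 0.68, SE 0.0439, adjusted p = 3.10e-08). Its 95% interval of 0.58 to 0.78 did not meet that of any other subunit, the highest of which ended at 0.48 for *Tcp1*. *Tcp1*, *Cct8*, *Cct6a*, *Cct3* and *Cct7* followed with log2 fold changes from 0.36 down to 0.20. *Cct4* (0.14, adjusted p = 0.0617) and *Cct5* (0.073, adjusted p = 0.0953) did not pass, and the sign of *Cct5* turned under total counts. The mitochondrial chaperonins, whose products form the HSP60 barrel and its HSP10 lid, rose by nearly the same amount. *Hspd1* went from 8187, 8013 and 7995 to 13952, 15013 and 14290.5 (log2 fold change 0.84, SE 0.0412) and *Hspe1* from 3099, 3471 and 3328 to 5813, 6245 and 5888 (log2 fold change 0.86, SE 0.0517). These are the neighbors on either side of the 215 bases shown above.

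Transcripts of the heat shock factors themselves differed little. *Hsf1*, the main activator of the inducible chaperone genes, measured 907, 761 and 809 in Stem, 823, 781 and 822 in TGF-β and 809, 804 and 926 in Both. The groups overlapped (log2 fold change -0.03, 95% interval -0.19 to 0.13, adjusted p = 0.728). *Hsf2*, which can pair with Hsf1, fell slightly in TGF-β (log2 fold change -0.15, SE 0.0516, adjusted p = 0.0165). Activity of these factors is set mainly by their protein state, which was not measured here.

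In the fit with no term but group, addition of PFI-3 to TGF-β1 changed few chaperone genes past the test and none of them 2-fold. At an adjusted p below 0.05, *Cryab* and *Hsf2* were higher in Both than in TGF-β and *Hspa9* and *Cct5* were lower. The 2 higher members are 5.71% of the 35, beside 3.54% of all genes, and the 2 lower ones are 5.71%, beside 5.38%. No member passed the 2-fold threshold, which 0.161% of all genes did upward and 0.47% downward. Unadjusted p-values below 0.05 were held by 13 members. No share of all genes at that unadjusted threshold is given, so the 13 are not read as an excess. The DESeq2 count at an adjusted p below 0.05 was 5 members, with *Hsp90ab1* added, beside 1406 of all genes. The median log2 fold change was 0.018, and the groups did not overlap in 13 members, or 37.1%, beside 32.7% of all genes.

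*Cryab* rose a further 1.54-fold with PFI-3 (log2 fold change 0.62, SE 0.163, adjusted p = 0.0341). *Hsf2*, at 805, 776 and 818 in Stem and 717, 748 and 690.3 in TGF-β, stood at 829, 842 and 806 in Both, above every TGF-β library (log2 fold change 0.20, SE 0.051, adjusted p = 0.0305). *Hspa9* fell in Both without overlap, and stayed above Stem (log2 fold change -0.20, SE 0.0454, adjusted p = 0.0197). *Cct5* measured 7106, 7252 and 6981 in Stem, 7353, 7709.6 and 7382 in TGF-β and 6635, 6959.7 and 6653 in Both, and fell (log2 fold change -0.15, SE 0.0373, adjusted p = 0.0286). Both lay below TGF-β in every pair of libraries for *Cct5*. The log2 fold changes of the 8 CCT subunits ran from -0.15 to 0.0015, with 7 below 0, and with DESeq2's size factors *Tcp1* was below 0 as well.

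None of the 4 calls held with every library left out in turn. The count of 4 members fell to 0 without TGF-β replicate 2 or 3 or without Both replicate 1 or 3, to 1 without TGF-β replicate 1 and to 2 without Stem replicate 3, and it rose to 8 without Stem replicate 1 or 2 and to 5 without Both replicate 2. Genes called over all were 527 higher and 800 lower in the full fit. They were 639 and 702 without TGF-β replicate 2 or 3, and 651 and 788 without Both replicate 1 or 3. Without TGF-β replicate 1 they were 787, and without Stem replicate 3 they were 1042. They were 1774 and 2193 without Stem replicate 1 or 2, and 1171 without Both replicate 2. The value for *Cryab* without Both replicate 1 was 0.44 (adjusted p = 0.143), and over all libraries left out it ran from 0.44 to 0.81.

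The members with the largest differences between TGF-β and Both were not among the calls. *Hspa1b*, at 1134, 645 and 1064 in TGF-β and 2772, 1232 and 2096 in Both, was higher without overlap but did not pass (log2 fold change 1.10, SE 0.355, adjusted p = 0.0772). *Hspa4l* likewise did not overlap, with 2598, 2123 and 2607 against 4748, 2834 and 4231 (log2 fold change 0.69, SE 0.264, adjusted p = 0.133). *Hspa1a* overlapped (log2 fold change 0.68, SE 0.218, adjusted p = 0.0757). These 3 genes, all of the HSP70 and HSP110 family, have biological coefficients of variation of 28.8%, 22.7% and 18.1% between replicates, against a median of 5.89% over all genes. In a fit of only the 6 libraries compared, the adjusted p was 0.0133 for *Hspa1b*, 0.00941 for *Hspa4l* and 0.0268 for *Hspa1a*, and *Hspa1b* then passed the 2-fold threshold. By DESeq2 it was 0.110, 0.270 and 0.132. The 95% interval of the *Hspa1b* log2 fold change was 0.33 to 1.88. *Fkbp5* lay lower in Both, nearer its Stem level, also without overlap and without passing (log2 fold change -0.28, adjusted p = 0.0912). For *Hspb7* the 95% interval of the difference was -0.19 to 0.17, beside its rise of 3.54 from Stem to TGF-β.

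Within groups, the spread of these genes ran with the replicate number. In each of the 3 groups *Hspa1b*, *Hspa1a*, *Hspa4l*, *Hsph1*, *Cryab*, *Bag3*, *Dnaja1*, *Stip1* and *Hsf1* were lowest in the library numbered 2. These are 9 members, or 25.7%, beside 12.5% of all genes. *Hspa1b* spanned 2.71-fold from lowest to highest within Stem, 1.76-fold within TGF-β and 2.25-fold within Both, and *Hspa4l* 2.55-fold, 1.23-fold and 1.68-fold. A further 12 members, or 34.3%, were highest in that library in every group, beside 12.1% of all genes, namely *Hspa8*, *Hsp90aa1*, *Hspe1*, *Dnajb4*, *Fkbp5* and the CCT subunits *Tcp1*, *Cct2*, *Cct3*, *Cct4*, *Cct5*, *Cct6a* and *Cct8*. *Tcp1* measured 10355, 11703 and 10411 in Stem, 13571, 14498 and 13743 in TGF-β and 13529.6, 14637 and 13690.3 in Both, and *Cct4* 5496, 6555 and 5689, 6259.9, 6977 and 6368 and 5890.1, 6262 and 5829.7. The inducible HSP70 pair and 7 of the 8 CCT subunits were thus at opposite ends in the same libraries. The library numbered 2 had the largest total count in Stem and the smallest in Both. Without these 3 libraries, an alternative chosen after the data were seen, the log2 fold change between TGF-β and Both was 1.15 for *Hspa1b*, 0.79 for *Hspa4l* and 0.75 for *Hspa1a*. Because the libraries were picked as those in which these genes are lowest, leaving them out narrows the spread within groups by construction, and the smaller p-values of that fit support nothing. What the library number stands for is not given in the sources used here.

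**Figure D4:**
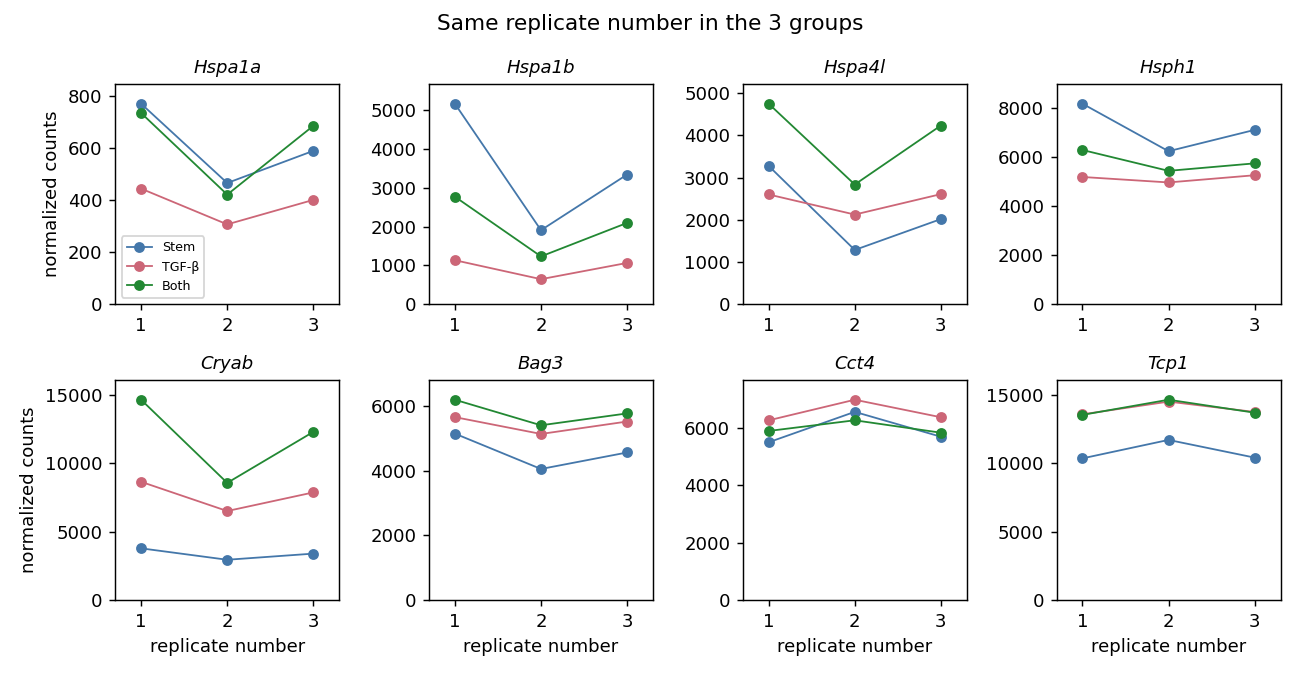
Normalized counts (y axes, each starting at 0) of 8 members against replicate number (x axis), with a line for each group joining its 3 libraries for the eye only. *Hspa1a*, *Hspa1b*, *Hspa4l*, *Hsph1*, *Cryab* and *Bag3* are lowest at number 2 in every group, and *Cct4* and *Tcp1* highest.

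Between Stem and Both, 21 members were higher and 3 lower at an adjusted p below 0.05, or 60.0% and 8.57%, beside 36.6% of all genes higher and 36.6% lower. Past 2-fold, 4 members were higher in Both (9.55% of all genes) and 0 lower (13.2% of all genes). The 4 are *Hspb7*, *Cryab*, *Hspb1* and *Hspa9*, with log2 fold changes of 3.53, 1.81, 1.13 and 1.08. *Hspa4l*, which differed from Stem within its spread in TGF-β, was higher in Both (log2 fold change 0.84, SE 0.265, adjusted p = 0.0125), although its groups overlapped. The values for the HSP70 pair were -0.77 for *Hspa1b* (adjusted p = 0.0553) and 0.015 for *Hspa1a* (adjusted p = 0.952), and neither passed. This comparison shares its Stem libraries with the one between Stem and TGF-β.

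Partners of these chaperones, from lists of related genes, were read the same way, and their counts stand beside the 37.3% of all genes that were higher and the 37.7% that were lower in TGF-β. Over the 10 lists, with each gene counted once and the members left out, 132 genes were tested, and 79 (59.8%) were higher and 26 (19.7%) lower. A list of 25 further genes holds HSP70 and J-domain genes and other HSP70 partners, among them the *Bag* genes. Of these, 23 were tested, and 12 (52.2%) were higher and 6 (26.1%) lower in TGF-β at an adjusted p below 0.05. *Hspa2*, an HSP70 best known from testis, rose from 394, 404 and 361 to 1288, 1142 and 1223 (log2 fold change 1.66, adjusted p = 2.72e-10), *Bag2* rose by 1.02 and *Hspa12b* fell by 1.45 on the log2 scale. Of 15 further HSP90 partners, 5 (33.3%) were higher and 2 (13.3%) lower. *Unc45b*, the chaperone of muscle myosin, had 380.0, 315 and 344 in Stem, 21.6, 17.2 and 17.6 in TGF-β and 7.2, 10.9 and 8.78 in Both. It was lower in TGF-β than in Stem (log2 fold change -4.20, adjusted p = 1.04e-10) and lower again with PFI-3 (log2 fold change -1.06, adjusted p = 0.0264). *Aarsd1* fell from counts below 58 (log2 fold change -1.11).

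The prefoldin and chaperonin helper list holds prefoldin, which hands actin and tubulin to CCT, phosducin-like cofactors, and tubulin cofactors, which act on tubulin after it has left CCT. Of its 14 tested genes 10 (71.4%) were higher and 2 (14.3%) lower in TGF-β, with log2 fold changes from -0.39 to 0.97, a median of 0.35 and none past 2-fold. Of 16 actin and tubulin genes, which encode the main clients of CCT, 11 (68.8%) were higher and 3 (18.8%) lower, and 4 passed 2-fold. *Acta2*, smooth muscle actin, rose by 1.21, *Tubb2b* by 1.38 and *Tubb6* by 1.20 on the log2 scale, while *Acta1* rose from at most 3.14 normalized counts. Of 12 genes of mitochondrial protein folding, 7 (58.3%) were higher and 1 (8.33%) lower, and *Lonp1*, the matrix protease, rose from 3046, 2695 and 2852 to 8557, 8614 and 8885 (log2 fold change 1.60, adjusted p = 2.43e-11). Of 17 chaperones of the endoplasmic reticulum, 10 (58.8%) were higher and 2 (11.8%) lower, and *Serpinh1*, the collagen chaperone, passed 2-fold (log2 fold change 1.13).

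Other small heat shock and autophagy partners gave 5 higher and 1 lower of 7 tested, led by *Sqstm1* (log2 fold change 1.59) and *Hspb11* (1.05). A further list holds heat shock factors, their targets and regulators, and other genes that respond to stress or temperature. Of its 11 tested genes, which include the member *Fkbp4*, 8 were higher and 2 lower, and *Fkbp4* was 1 of the 2 lower. *Gadd45b* stood at 2.95, *Hmox1* at 1.93, *Rbm3* at 1.22 and *Cirbp* at -1.65. The glucocorticoid-responsive list gave 4 higher and 6 lower of 10 tested. The metallothioneins *Mt2* (3.10) and *Mt1* (2.73) and *Ddit4* (1.99) rose and *Dusp1* fell (log2 fold change -2.76). *Tsc22d3* rose by 0.69 and, as the only 1 of the 10, was lower in Both than in TGF-β (log2 fold change -0.37, adjusted p = 0.00141). *Sgk1* and *Cebpd* went the other way, with log2 fold changes of -1.22 and -1.34 from Stem to TGF-β. Both genes were higher with PFI-3 (0.68 and 0.22, adjusted p = 0.000115 and 0.0235). *Per1* (-0.95) and *Klf9* (-0.43) were lower in TGF-β than in Stem. Whether any of these changes share a cause with that of *Fkbp5* was not tested. Growth genes gave 8 higher and 2 lower of 12. Among the lower ones, *Ccnd1* fell from Stem to TGF-β (log2 fold change -0.92) and again from TGF-β to Both (-0.92, adjusted p = 2.81e-05). From Stem to Both its log2 fold change was -1.83. Between TGF-β and Both, 7 of the 132 genes (5.3%) were higher and 13 (9.85%) lower, beside 3.54% and 5.38% of all genes, from 0 of 14 prefoldin and chaperonin helpers to 4 of 10 glucocorticoid-responsive genes, 3 of them higher.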

How the data were processed

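RNA-Seq of 9 libraries, 3 in each of the groups Stem, TGF-β and Both, was used. The authors deposited read counts per Ensembl gene, whole numbers without normalization, in 1 column per library. Per the paper, reads from stranded, ribosome-depleted libraries were trimmed and aligned to GRCm39 with STAR, whereas the submitters' processing notes name HISAT2 2.2.1, SAMtools 1.13 and HTSeq 0.11.3; the strand setting of the counting and its handling of multiply aligned reads are not given in the sources used here. Symbols, exon lengths and transcripts came from GENCODE for GRCm38, and promoter sequences from RefSeq (GRCm38.p6).

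From the counts, edgeR 4.0.16 in R 4.3.3 was used with filterByExpr and TMM scaling, in a quasi-likelihood model over the 9 libraries, with no term but group, and Benjamini-Hochberg adjustment over 14879 genes. Members were called at an adjusted p below 0.05, and past the fold threshold if the log2 fold change was also beyond -1 or 1. The study's methods set the same threshold and name DESeq2, which was an alternative here (version 1.42.0). The pipeline was tested on simulated data.

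The 35 members and the lists were chosen with earlier results of these data known. Full statistics are given for members past the fold threshold between Stem and TGF-β, for members called between TGF-β and Both, for *Hspa1a*, *Hspa1b*, *Hspa8*, *Hsp90aa1*, *Hsp90ab1* and *Hsf1*, and for the member with the largest change in each role of 3 or more; from each other list at most 4 genes past the fold threshold are named. *Hspa4l*, *Hspd1*, *Hspe1*, *Tcp1* and *Cct4* were given library by library after their values were seen. *Tsc22d3*, *Per1* and *Klf9* were also named after their values were seen, as were *Sgk1* and *Cebpd*, which go beyond the 4 of their list. Alternatives were DESeq2, scaling by its size factors or by total counts, dropping the filter or setting it at a mean of 10 counts, fitting only the 6 libraries compared, a replicate block, and leaving out each library; added later were leaving out the libraries numbered 2, summing *Hspa1a* with *Hspa1b* and TMM without the 35 members.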

Additional observations from a re-analysis of the deposited data

How the results depend on the processing

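Between Stem and TGF-β and between Stem and Both, the numbers of members at an adjusted p below 0.05 and past 2-fold stayed within 1.5 times of those given under every alternative. Between TGF-β and Both, the count of 4 at an adjusted p below 0.05 was 8 with no filter, 11 in a fit of only the 6 libraries compared, 11 with the replicate block and 8 without the libraries numbered 2, and it ran from 0 to 8 over the 9 libraries left out in turn; the count of 0 past 2-fold was 1, *Hspa1b*, with no filter, with only the 6 libraries, with the replicate block and without the libraries numbered 2, and 0 to 1 over the libraries left out. Over all genes, 527 were higher and 800 lower between TGF-β and Both in the fit used. The number of genes called in that comparison was 1898 with no filter and 2310 with only the 6 libraries. It was 2309 (15.5%) with the replicate block and 1586 without the libraries numbered 2. Over the libraries left out in turn it ran from 639 to 2193. Between Stem and TGF-β, *Hspb1* fell below 2-fold under total counts (log2 fold change 0.94). *Fkbp5* ran from 0.81 to 1.07 over the libraries left out, on both sides of 2-fold. Of 364 values of single members recomputed, 313 kept their direction and their side of the adjusted p threshold, with crossings of 2-fold not counted. The reversed ones were *Hsp90aa1* between Stem and TGF-β, at 0.028 without Stem replicate 2 and 0.021 without TGF-β replicate 1, and *Hsf1*, at 0.046 without Stem replicate 1 and 0.0023 without TGF-β replicate 2, with ranges over the libraries left out of -0.045 to 0.028 and -0.080 to 0.046, and neither gene was called in any of these. *Hspa9* between TGF-β and Both was not called under total counts (adjusted p = 0.0576), nor *Hsf2* with no filter (adjusted p = 0.0522). Of the members lower in Both than in Stem, the count of 3 was 8 under total counts, 7 with the replicate block and 5 with no filter. The cause of these differences was not tested, except that total counts shift the median of all genes and that the libraries numbered 2 were picked for their low values of the inducible HSP70 genes. Same-numbered libraries of different groups had correlations of their deviations from -0.060 to 0.18. These were over 0.1 in 3 of 9 pairs and highest for the own number in 4 of 9. The 3 pairs over 0.1 were those of the libraries numbered 2, at 0.148, 0.117 and 0.177, each highest for its own number. Pairs of the libraries numbered 1 and 3 ran from -0.060 to 0.0955. The numbers were therefore not taken to pair all libraries, which leaves a difference shared by the libraries numbered 2 within the spread. With the replicate block *Hspa1b*, *Hspa1a*, *Hspa4l*, *Hspa4*, *Hsph1*, *Cct4* and *Fkbp5* were added to the 4 calls between TGF-β and Both. The adjusted p was 6.15e-06 for *Hspa1b*, 0.000103 for *Hspa1a*, 0.00407 for *Hspa4l* and 0.0111 for *Fkbp5*. With the block *Cct4* and *Cct5* were also called as higher in TGF-β than in Stem (adjusted p = 0.00249 and 0.0468), and *Hspa1b*, *Hspb6*, *Dnajb4* and *Cct5* as lower in Both than in Stem (adjusted p = 2.20e-06, 0.041, 0.0331 and 0.0395), and no call of the fit without the block was lost.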

Other observations

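Several genes outside the chaperones, chosen after their values were seen, were also lowest in the library numbered 2 of every group, among them genes for the transport or synthesis of organic osmolytes. *Slc5a3*, which carries myo-inositol into cells, had normalized counts of 75424, 51914 and 67585 in Stem, 16059, 9305 and 14837 in TGF-β and 28057, 15054 and 25644 in Both. It fell from Stem to TGF-β (log2 fold change -2.28, adjusted p = 3.19e-06) and did not pass the test between TGF-β and Both (log2 fold change 0.77, adjusted p = 0.0618). *Isyna1*, the enzyme that makes inositol phosphate, measured 7809, 3306 and 5806 in Stem, 1587, 983 and 1529.9 in TGF-β and 2284, 1397 and 2298 in Both. *Slc6a6*, the taurine transporter, spanned less, with 13692, 12703 and 13296 in Stem, and did not pass the test in either comparison.

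*Gas1*, a growth arrest gene, stood at 40774, 22145 and 34183 in Stem, 1312, 624 and 1041 in TGF-β and 2428, 1133 and 1896 in Both, and *Dusp1*, an early response phosphatase, at 4866, 3230.4 and 4019, 714, 442 and 637 and 1421, 746 and 1255. *Dusp1* was higher in Both than in TGF-β (log2 fold change 0.94, adjusted p = 0.0282), as was the amino acid transporter *Slc38a2* (log2 fold change 0.49, adjusted p = 0.000211). *Akr1b3* and *Nfat5* were lowest in the library numbered 2 as well, and neither passed the test between TGF-β and Both. Because these genes were picked for that order of libraries, it is a description of them and supports nothing about the chaperones.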
